A study of Mus musculus with 6 samples.

Results

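Transcripts of 8 immediate early genes were followed in mouse follicular B cells after 1 h of culture: the zinc finger transcription factors Egr1, Egr2 and Egr3, the immediate early response genes Ier2, Ier3, Ier5 and Ier5l, and Srf, which encodes serum response factor. They were chosen by gene name, with earlier results of these data known. All 8 were present among the 12431 genes in the count table, and 7 of them were among the 10514 genes that passed the filter on low counts. The cells were CD23+ CD21/35- follicular B cells sorted from spleens of adult male mice and held in complete medium with no added stimulus. WT mice carried the intact X-linked receptor gene (Gpr174+/Y). KO mice (Gpr174-/Y) carried a germline allele in which tdTomato takes the place of the coding exon, so the receptor was missing from all cells and not from B cells alone. Each genotype gave 3 libraries.

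Immediate early genes are switched on within minutes of a signal and need no new protein to be made first. Many of them respond along 2 routes. In one, the ERK kinases act on ETS-type cofactors that sit with SRF on CArG boxes in the promoter. In the other, cAMP and protein kinase A act through CREB on cAMP response elements (CREs). In B cells, Egr genes are best known as early responders to the antigen receptor, and GPR174 is a receptor that can raise cAMP through Gαs. The comparison of WT with KO therefore asks which of these genes differed with GPR174 after 1 h of unstimulated culture. All 6 libraries came from cultured cells, so a difference already present before culture cannot be told apart here from one that arose in it. In separate libraries the paper reported very few differences between these genotypes before culture. It named Ier2 as higher in WT than in KO after longer culture. Before culture, it named Ier2 as higher in cells with Gαs than in Gαs-deficient cells.

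Total counts were 8452460 to 10944833 per library. Gpr174 reads remained in KO cells, at 99.95 CPM ± 0.21 against 127.6 CPM ± 7.43 in WT (SD, n = 3). It was called higher in WT (0.35 in log2 units, edgeR adjusted p 0.0359). The allele replaces the coding exon and not the whole gene, and counts per gene do not show where reads lie, so they give no clear check of the genotype labels. All 7 measured follicular B cell markers of 8 listed were detected in every library, from Pax5 at 7.41 to 15.3 CPM to Ms4a1 at 1274 to 1413 CPM. The T cell gene Cd3e lay between 0.182 and 1.59 CPM. The highest of the myeloid markers was Tyrobp, at 25.8 to 32.2 CPM, and Lyz2 lay between 1.73 and 4.29 CPM. Summed over the follicular B markers, levels were 3976 to 4132 CPM in WT and 4570 to 4678 CPM in KO. Among other cell types, the 11 myeloid markers summed to 110.0 to 141.5 CPM in WT and 97.2 to 110.1 CPM in KO, 5 NK markers of 6 to 7.83 to 14.1 CPM and 6.53 to 7.30 CPM, 7 T cell markers of 8 to 11.5 to 13.9 CPM and 5.01 to 14.0 CPM, 5 plasma cell markers of 6 to 424.7 to 506.1 CPM and 545.6 to 609.1 CPM, and 2 erythroid markers of 6 to 29.7 to 64.6 CPM and 34.2 to 120.0 CPM. Of the plasma cell markers, Irf4, which B cells also express, made up most of the sum and was called lower in WT (-0.38 in log2 units, edgeR adjusted p 0.0043), while Sdc1, Prdm1 and Xbp1 overlapped between genotypes. The summed levels of the 6 marginal zone B markers overlapped between genotypes, at 1263 to 1339 CPM and 1233 to 1429 CPM. So did those of 12 heat shock genes, at 3000 to 3557 CPM and 3271 to 3383 CPM. Within these lists, the marginal zone marker S1pr3 was lower in all WT than in all KO libraries but was not called. The heat shock gene Hspa1b, at low levels, was called lower in WT (-1.65 in log2 units, edgeR adjusted p 0.0428). The part of these differences in the results was not tested, and in bulk libraries fewer cells of a type and less RNA per cell cannot be told apart.

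Promoter sequences were available for 5 of the 8 genes from RefSeq (GRCm38.p6, the same assembly as mm10), each from 250 bases before to 50 bases after an annotated start. The 4 printed here set the gene with the largest fold change of the group (Ier5l) beside its relative Ier5, Egr2 and Srf. They are written 5′ to 3′ along the gene. Capitals mark a CArG box or the CRE half-site TGACG on either strand, so that CGTCA is the half-site read on the other strand.
Ier5l (chr2:30474150-30474449, minus strand): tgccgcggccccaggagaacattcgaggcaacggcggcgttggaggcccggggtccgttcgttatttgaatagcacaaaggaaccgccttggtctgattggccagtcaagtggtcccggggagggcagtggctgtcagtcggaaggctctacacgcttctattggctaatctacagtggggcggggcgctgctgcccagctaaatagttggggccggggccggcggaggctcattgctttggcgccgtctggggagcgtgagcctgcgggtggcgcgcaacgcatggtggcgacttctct
Ier5 (chr1:155099587-155099886, minus strand): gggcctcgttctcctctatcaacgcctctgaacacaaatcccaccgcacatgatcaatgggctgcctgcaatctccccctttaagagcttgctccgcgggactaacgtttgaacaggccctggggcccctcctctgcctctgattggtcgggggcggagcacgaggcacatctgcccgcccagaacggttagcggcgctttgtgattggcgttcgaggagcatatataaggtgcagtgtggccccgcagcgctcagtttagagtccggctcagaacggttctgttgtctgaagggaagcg
Egr2 (chr10:67537619-67537918, plus strand): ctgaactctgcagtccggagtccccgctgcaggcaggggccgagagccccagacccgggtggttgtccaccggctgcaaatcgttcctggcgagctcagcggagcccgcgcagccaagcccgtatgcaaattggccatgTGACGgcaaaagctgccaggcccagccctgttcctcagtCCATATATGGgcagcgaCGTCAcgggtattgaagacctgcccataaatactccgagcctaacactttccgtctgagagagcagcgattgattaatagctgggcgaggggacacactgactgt
Srf (chr17:46556113-46556412, minus strand): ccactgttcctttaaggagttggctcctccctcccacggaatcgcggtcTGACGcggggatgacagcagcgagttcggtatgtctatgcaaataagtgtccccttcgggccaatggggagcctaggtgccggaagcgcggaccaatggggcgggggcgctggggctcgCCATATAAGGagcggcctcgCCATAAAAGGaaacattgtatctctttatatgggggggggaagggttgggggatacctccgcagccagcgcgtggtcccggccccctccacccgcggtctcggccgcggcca

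Of the 7 genes tested, 2 were higher in WT and 0 were lower at an edgeR adjusted p under 0.05. These were Ier2 and Ier5l. Over all 10514 genes tested, 1.82% were called, 1.3% as higher in WT and 0.514% as lower. The 3 Egr genes had values in the other direction that were not called in this fit. Egr1 and Egr2 were called lower in WT only with the replicate number as a block (edgeR adjusted p 0.0277 and 8.87e-05). The labels do not pair the samples by that number. Ier5 and Srf differed little, and Ier3 was too scarce to test. The median log2 fold change (WT over KO) was -0.06 over the 7 genes and -0.00257 over all genes tested, so as a group these genes did not share a direction.

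Ier2 encodes a small nuclear protein that is among the fastest of the early response genes, and it is a gene of 1 exon on chromosome 8 (84661331 to 84662852). Its level was 258.4, 314.7 and 228.8 CPM in WT replicates 1 to 3 and 124.2, 118.3 and 126.4 CPM in KO replicates 1 to 3. The lowest WT library was well above the highest KO library, and the KO libraries lay close together. The means were 267.3 CPM ± 43.7 in WT and 123.0 CPM ± 4.22 in KO (SD, n = 3). The fitted fold change of WT over KO was 2.17, or 1.12 ± 0.10 on the log2 scale (± SE), and it passed the edgeR test (adjusted p 1.74e-08). Omitting any single library kept the call, and the adjusted p was then at most 5.34e-06.

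Ier5l, a relative of Ier5, is likewise a gene of 1 exon, on chromosome 2 (30471537 to 30474219). It rested on few reads, with 121, 84 and 62 counts in WT replicates 1 to 3 and 20, 15 and 30 counts in KO replicates 1 to 3. These correspond to 11.1, 10.0 and 7.04 CPM in WT and 1.82, 1.64 and 2.92 CPM in KO. All WT libraries were above all KO libraries, with more relative spread than for Ier2. WT exceeded KO 4.39-fold, which is 2.13 ± 0.36 (SE) in log2 units, and the difference passed the edgeR test (adjusted p 0.000694). The call was kept without each library in turn (adjusted p 0.00156 to 0.0106), and the fold change was the largest among the immediate early genes tested here.

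Ier5, which encodes a regulator of heat shock factor activity, did not follow its relative. It was at 821.6, 958.2 and 986.3 CPM in WT replicates 1 to 3 and at 945.6, 996.1 and 946.8 CPM in KO replicates 1 to 3. The genotypes overlapped, with WT replicate 1 the lowest library and KO replicate 2 the highest. The difference was -0.06 ± 0.07 in log2 units (SE; edgeR adjusted p 0.791), and 2 SE either side of it reach from -0.20 to 0.07. With 8035 to 10389 counts in each library, a change as large as that of Ier2 would lie far outside this interval.

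Ier3, an early gene linked to cell survival, gave 16, 6 and 8 counts in WT replicates 1 to 3 and 3, 0 and 10 counts in KO replicates 1 to 3. The count of 0 in KO replicate 2 allows a level of up to 0.327 CPM, taken as 3 counts in that library. KO replicate 3 was above 2 of the WT libraries. Ier3 did not pass the filter on low counts. With no filter edgeR put the difference at 1.27 ± 1.18 in log2 units (SE), adjusted p 0.778, and a difference was not detectable at this depth.

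**Figure D1:**
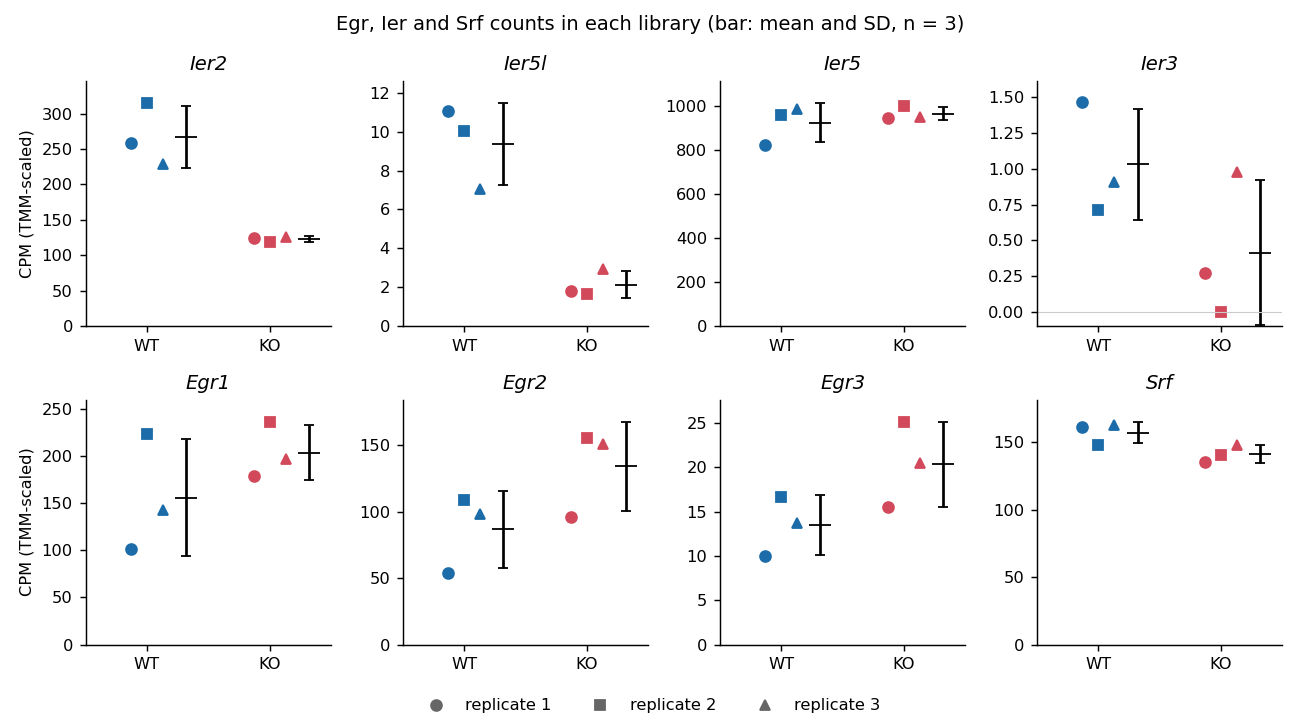
Level of each gene in each library in CPM after TMM scaling, on axes that include 0. Blue points are WT and red points KO, the shape gives the replicate number, and the black bar is the mean with its SD (n = 3). Ier2 and Ier5l separate the genotypes widely, Srf narrowly, and the other 5 genes overlap.

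To compare the genotype differences of relatives directly, the log2 ratio of their counts was taken in each library, which does not depend on how libraries are scaled. The ratio of Ier2 to Ier5 was -1.67, -1.61 and -2.11 for the WT libraries, against -2.93, -3.07 and -2.90 for the KO libraries, each in replicate order. The groups did not overlap, and the ratio was higher in WT by 1.17 ± 0.17 (SE). For Ier5 over Ier5l the difference (WT minus KO) was -2.20 ± 0.38, and for Ier2 over Ier5l it was -1.03 ± 0.27, again with no overlap. The two-sided exact permutation test gave each of these 3 pairs a p of 0.1, the lowest value possible with 3 libraries a group, and 0.233 after adjustment over 7 pairs. The ratio of Ier2 to Ier3 overlapped between genotypes (exact permutation p 0.7).

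The Egr genes encode related zinc finger factors that bind the same GC-rich element. Egr1, the best studied of them, was at 101.3, 223.7 and 143.1 CPM in WT replicates 1 to 3 and at 178.5, 236.6 and 196.8 CPM in KO replicates 1 to 3. WT replicate 2 lay within the KO range and the other WT libraries below it. The difference in log2 units was -0.39 ± 0.34 (SE; edgeR adjusted p 0.762). The size of this difference rested on single libraries. Without WT replicate 2 the log2 fold change was -0.74 (adjusted p 0.0849), and without WT replicate 1 it was -0.15 (0.863).

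Egr2, which restrains lymphocyte activation in several settings, was at 53.8, 108.4 and 98.1 CPM in WT replicates 1 to 3 and at 95.7, 155.7 and 151.1 CPM in KO replicates 1 to 3. KO replicate 1 fell among the WT libraries. WT differed from KO by -0.63 ± 0.36 in log2 units (SE; edgeR adjusted p 0.615). Egr3, its closest partner in function, was at 9.97, 16.7 and 13.7 CPM in WT replicates 1 to 3 and at 15.5, 25.1 and 20.5 CPM in KO replicates 1 to 3. WT replicate 2 was above KO replicate 1 and the other WT libraries were below all KO libraries. The difference was -0.60 ± 0.22 in log2 units (SE; edgeR adjusted p 0.229). At 2 SE either side, the intervals were -1.07 to 0.29 for Egr1, -1.36 to 0.09 for Egr2 and -1.05 to -0.15 for Egr3. The unadjusted p values depended on the test, at 0.31, 0.148 and 0.0131 under edgeR and 0.00873, 0.00159 and 0.0146 under limma-voom, where no Egr gene passed after adjustment either (0.198, 0.0705 and 0.242).

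The 3 Egr genes varied together from library to library. In all 3, WT replicate 1 was the lowest, WT replicate 3 intermediate and WT replicate 2 the highest of the WT libraries, and the KO replicates ranked 1, 3 and 2 from low to high. Of the 8554 genes averaging 50 counts or more, 307 (3.59%) had this order in both groups, as did 12 of 56 other immediate early genes, among them Fosb, Atf3, Myc and Nr4a2, which were singled out after their values were seen. Relative to the other genes the Egr transcripts, like Ier5l, were among the more variable. Their SD of log2 CPM within groups was 0.43, 0.48 and 0.36 for Egr1, Egr2 and Egr3, which was larger than in 94.6%, 96.4% and 90.1% of those genes. It was 0.37 for Ier5l, which had fewer counts (larger than in 91.4% of those genes), 0.17 for Ier2, 0.10 for Ier5 and 0.07 for Srf. The ratios of Egr1 to Egr2, Egr1 to Egr3 and Egr2 to Egr3 differed between genotypes by 0.21 ± 0.21, 0.14 ± 0.16 and -0.06 ± 0.15 on the log2 scale (SE), and the exact permutation p values were 0.4, 0.5 and 0.9.

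Srf was at 161.1, 148.0 and 162.5 CPM in WT replicates 1 to 3 and at 135.2, 140.7 and 148.0 CPM in KO replicates 1 to 3. The lowest WT library and the highest KO library were almost level, and the groups did not overlap. The difference was 0.15 ± 0.08 in log2 units (SE; edgeR adjusted p 0.495), and 2 SE either side of it reach from -0.01 to 0.32. Ier2, Ier5l and Srf were thus the 3 of 7 tested genes with WT and KO libraries apart, as were 16.7% of all genes tested. Srf overlaps an annotated gene on the opposite strand, Gm26904, and a microRNA gene on its own strand, so its counts are uncertain where the use of strand in counting was not stated.

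**Figure D2:**
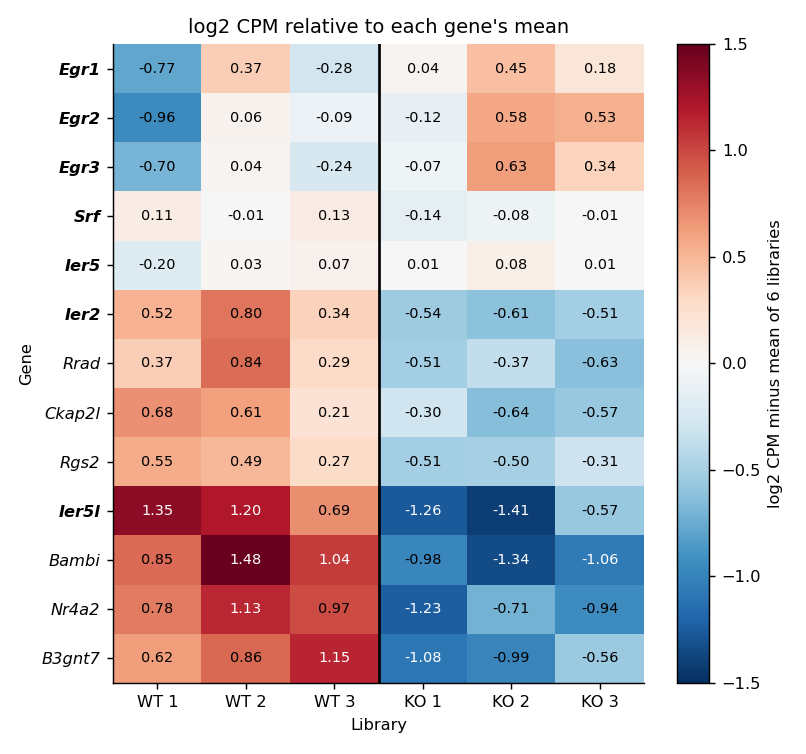
log2 CPM in each library minus the gene's mean over the 6 libraries, in colour and as numbers, with WT to the left of the black line and KO to the right. Genes in bold are Egr, Ier and Srf genes, and the genes under Ier2 and Ier5l are the 3 closest to each in profile. WT replicate 1 is the lowest library for the 3 Egr genes, at -0.77, -0.96 and -0.70.

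Genes with the most similar profiles were sought for the 2 called genes among those 8554 genes, by the root mean square distance of log2 CPM centred over the 6 libraries. Nearest to Ier2 were Rrad (distance 0.128), a small GTPase, Ckap2l (0.155), which encodes a mitotic spindle protein, and Rgs2 (0.161), which limits G protein signals. Nearest to Ier5l were Bambi (0.344), a decoy receptor of the TGF-β family, Nr4a2 (0.387), an orphan nuclear receptor, and B3gnt7 (0.389), a glycosyltransferase. Rrad reached 51.9, 71.8 and 48.9 CPM in WT replicates 1 to 3 and 28.2, 31.1 and 25.9 CPM in those of KO, so that, as for Ier2, WT replicate 2 was the highest library. Distances were larger for Ier5l, whose counts were lower.

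Ier2 and Ier5l were next set beside other immediate early genes written from general knowledge, with earlier results of these data known. The list holds genes that the paper reported as higher in WT, such as Crem and Nr4a1. Its share of called genes may therefore partly reflect that choice. Of 64 listed, 59 were tested, of which 16 were called higher in WT, 6 lower and 37 in neither direction. Together 37.3% were called, against 1.82% of all genes tested, with a median log2 fold change of 0.15. For 27 of the 59 (45.8%) the WT and KO libraries lay apart, against 16.7% of all genes tested. Those higher in WT included Nr4a2, Plk2, Nr4a1, Fos, Fosl2 and Sik1, with log2 fold changes of 1.92, 1.75, 1.69, 1.68, 1.60 and 1.44. Those lower were Gadd45g (-0.63), Jund (-0.49), Jun (-0.46), Cd69 (-0.42), Nfkbia (-0.42) and Klf2 (-0.23). The calls for Jun and Cd69 each failed in 4 of 6 single-library omissions, that for Klf2 in 5 and that for Nr4a1 in 2 (without KO replicate 1 or 2). Ier5l thus lay at the upper end of this range and Ier2 among its called genes, while Egr2 was level with Gadd45g at the lower end (-0.63 for both), with an SE of 0.36 against 0.10 for Gadd45g, which was called. Without WT replicate 1 the value for Egr2 was -0.38.

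**Figure D3:**
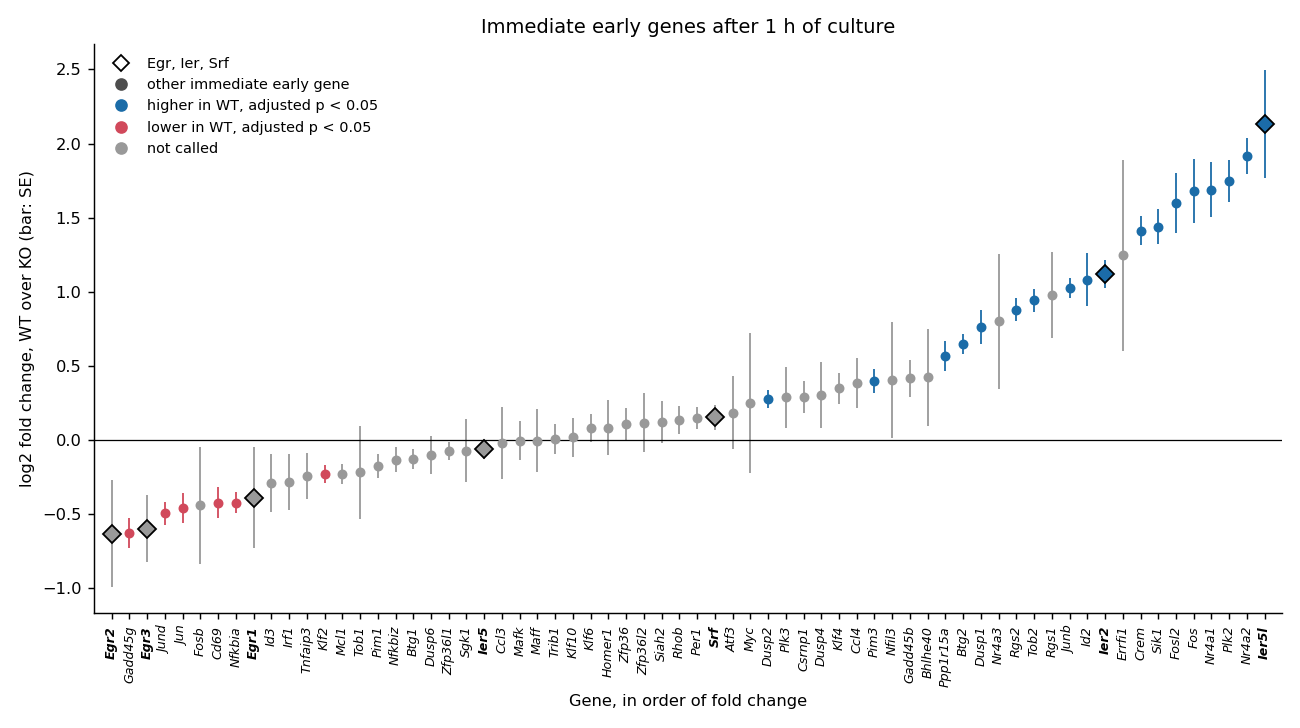
Log2 fold change of WT over KO with its SE for each tested immediate early gene, in order. Diamonds and bold names are Egr, Ier and Srf genes, circles other immediate early genes, blue called higher in WT, red called lower and grey not called. Ier5l stands at the right end (2.13) and Egr2 at the left end beside Gadd45g (-0.63 for both), where its SE bar is wider than those of the red genes beside it.

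Genes around these factors were examined next. Of the EGR corepressors and SRF cofactors, 8 of 10 listed were tested and 0 were called by edgeR, with 2 at an unadjusted p under 0.05: Nab1, a corepressor of EGR proteins, at 0.18 ± 0.09 in log2 units (SE), and Mkl2, an actin-regulated SRF cofactor, at -0.32 ± 0.15. DESeq2 and limma-voom also called 0 of them. Over all 10514 genes tested, 1.82% were called and 1248 had an unadjusted p under 0.05. Nab2, a corepressor gene that EGR proteins themselves induce, had 0.22 ± 0.19. Egr4 and Fhl2 were not analysed here. Of 17 tested cytoskeletal targets of SRF, 1 was called, Tpm4, a tropomyosin, which averaged 550.2 CPM ± 21.1 across WT and 406.0 CPM ± 13.1 across KO libraries (SD, n = 3), or 0.44 ± 0.07 in log2 units (SE; edgeR adjusted p 0.000131). The WT and KO libraries lay apart for 5 of these 17 (29.4%), with WT below KO in 4, against 16.7% of all genes tested. Another 3 had an unadjusted p under 0.05 and were not called: Tagln2, Coro1a and Actb, at -0.25, -0.20 and -0.15 in log2 units, with edgeR adjusted p values of 0.104, 0.147 and 0.243. The median log2 fold change was 0.09 for the partners and -0.04 for the SRF targets.

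The promoter windows and gene structures were then described for what the genes share. The windows were searched on both strands for the CRE (TGACGTCA), its half-site (TGACG, which every CRE contains), the CArG box, the EGR site (GCGNGGGCG), the AP-1 site (TGANTCA) and the ETS core (CCGGAA). These were found in 1.79%, 20.8%, 1.63%, 5.55%, 7.81% and 14.9% of all 32851 windows of the same length. Srf held CArG boxes starting 82 and 62 bases before the start, an ETS core 122 bases before it, an EGR site 101 bases before it and a CRE half-site 201 bases before it. Egr2 has several annotated starts, and the window printed above was picked for holding a half-site. It held a CArG box 72 bases before the start between 2 half-sites, 111 and 55 bases before it. The overlapping windows at 67537620 to 67537919 and 67537680 to 67537979 held the same CArG box and half-sites. The remaining Egr2 windows differed. That at 67537316 to 67537615 held a CArG box 72 bases before its start, ETS cores 131, 129 and 48 bases before it and no half-site. That at 67535249 to 67535548 held none of these motifs. The Ier5l, Ier5 and Ier3 windows held none of these motifs. A match in these letters is not evidence of binding, and sites outside the window were not searched.

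**Figure D4:**
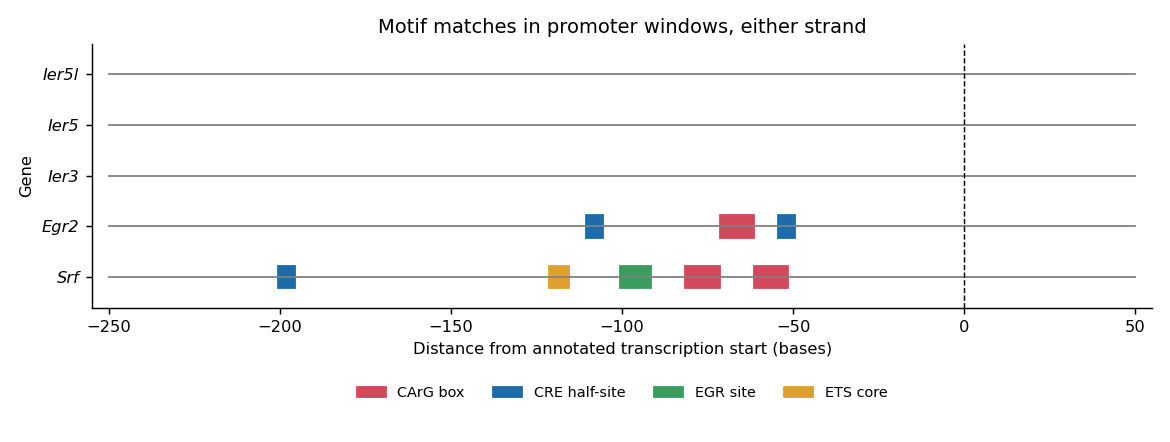
Motif matches on either strand in the promoter windows of 5 genes, by distance in bases from the annotated start (dashed line). Boxes span the matched letters. For Egr2, which has several windows, only the window printed in the text is drawn. CArG boxes appear in Egr2 and Srf, and the lines for Ier5l, Ier5 and Ier3 are empty.

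Over the wider set of immediate early genes, windows were available for 15 of the 18 genes called higher in WT and 30 of the 42 not called. The 18 and the 42 include Ier2, Ier5l and the other tested genes above. There was no window for Ier2, Egr1 or Egr3, so the motif counts do not cover them. A full CRE was present in 4 of the 15 (Btg2, Dusp1, Plk2 and Ppp1r15a) and in 2 of the 30 (Errfi1 and Maff), against 2.03% of all genes with a window. The half-site was present in 66.7% of both classes, against 23.0% of all genes. The EGR site was present in 7 of the 15 and 9 of the 30, against 6.27% of all genes. For the ETS core the counts were 1 of the 15 and 8 of the 30 (16.7% of all genes). For the AP-1 site they were 0 and 3 (8.97% of all genes). Of the 5 genes with a window among the 6 called lower in WT, 1 held the half-site (Klf2) and 0 a full CRE or a CArG box. A CArG box was present in 0 of the 15 and in 3 of the 30 (Egr2, Srf and Zfp36), against 1.81% of all genes. These genes were named for their motifs after those were seen, and no test of the classes was made. Genes with several annotated starts have several windows and so more room for a match.

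Of the 8 genes, 3 have 1 exon (Ier2, Ier5 and Ier5l) and 4 have 2 (Egr1, Egr2, Egr3 and Ier3) in their longest coding transcript, where 5.87% of tested genes with an annotated 3′ untranslated region have at most 2. The pentamer ATTTA, part of the AU-rich elements that mark unstable transcripts, occurred 5 times in the 613 bases of the Ier3 3′ untranslated region, 7 times in the 2645 bases of Egr3, 3 times in each of Egr2 and Ier5l, 2 times in each of Egr1 and Ier5, once in Srf and not in Ier2. Per 1000 bases this was 8.16 in Ier3, a density that 1.33% of tested genes reached, and 2.50 in Egr2, 2.65 in Egr3 and 2.39 in Ier5l, against a median of 1.31. The called genes Ier2 and Ier5l thus differed from each other in this feature.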

How the data were processed

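Libraries were from sorted splenic follicular B cells of 3 WT and 3 KO mice, cultured for 1 h and grouped by title. Per the labels and the study's methods, the authors used a kit priming at transcript 3′ ends, aligned single-end reads to mm10 with STAR and counted with HTSeq; versions, annotation and strand setting were not stated. The deposited values were raw counts per gene with no normalization. The least abundant gene had a total of 10 counts, and 0 sample columns were left unused.

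Genes were filtered with filterByExpr and tested with edgeR 4.0.16 (R 4.3.3), with TMM scaling, robust quasi-likelihood F test and Benjamini-Hochberg adjustment over all 10514 genes at 0.05. SE is the absolute log2 fold change over the square root of F. CPM used TMM-scaled library sizes. Profile distances used log2 CPM with a prior count of 2. Ratios used counts plus 0.5 and two-sided exact permutation tests over libraries. Replicates differed by 6.89 to 10.9 chi-square units per degree of freedom, so no library was a copy of another. P-values measure the spread between 3 mice per genotype.

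Named were all 8 genes, Gpr174, genes past the threshold in each list (at most 6 per direction by size) and the 3 nearest profiles of each called gene. The genes and lists were chosen with earlier results of these data known. Alternatives were DESeq2 1.42.0 and limma-voom (limma 3.58.1) on the filtered genes, RLE, upper-quartile or no scaling factors, omitting the filter or requiring a mean count of 50, ordinary dispersions, a replicate block, omission of each library, and 0.01 as the threshold. Gene positions are from GENCODE vM21 (mm10) and promoters from RefSeq. One further gene list is not reported here.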

Additional observations from a re-analysis of the deposited data

How the results depend on the processing

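Ier2 and Ier5l kept their calls and direction in every alternative run, with log2 fold changes of 0.99 to 1.22 and 1.98 to 2.43 over 6 single-library omissions. Egr1, Egr2, Egr3 and Srf kept their direction, at -0.74 to -0.15, -0.83 to -0.38, -0.78 to -0.41 and 0.12 to 0.20 over the same omissions. Ier5 lay between -0.12 and 0.02 and changed sign without WT replicate 1 (0.015, adjusted p 0.967). The replicate numbers do not pair the samples by the labels, and same-numbered libraries deviated together only weakly (r 0.0136 to 0.0498), although each library correlated best with its own number. With the replicate number as a block, 4 genes were called, Egr1 (-0.45, adjusted p 0.0277) and Egr2 (-0.66, 8.87e-05) being added, and 281 genes in all. The cause was not tested.

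The count of all genes called was 191, 95 at an adjusted p under 0.01, and 91 (without KO replicate 3) to 183 across fits without one library, with 113 without KO replicate 2. The share higher in WT ranged from 64.7% to 81.6% there, against 71.7%. Counts ranged over those fits from 16 to 22 for other immediate early genes, and were 2 for the Egr, Ier and Srf genes, 0 for the partners and 1 for the SRF targets. Among the ratios, Egr2 to Egr3 (-0.06) changed sign without WT replicate 1 (0.0503) and without KO replicate 3 (0.02), with a range of -0.15 to 0.05, and Ier2 to Ier3 (-0.89) without KO replicate 2 (0.21), with a range of -1.86 to 0.21. The ratio of Ier2 to Ier5 ranged from 1.08 to 1.33, Ier2 to Ier5l from -1.26 to -0.88, Ier5 to Ier5l from -2.46 to -1.99, Egr1 to Egr2 from 0.08 to 0.35 and Egr1 to Egr3 from 0.02 to 0.24. Ier3, with 0 to 16 counts in a library, was too low for the filter.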
